A study of Schizosaccharomyces pombe with 8 samples.

Results

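Heterochromatin in the fission yeast Schizosaccharomyces pombe is marked by methylation of histone H3 at lysine 9, and a set of anti-silencing factors keeps that mark from spreading into active genes. Epe1 is a JmjC-domain protein that is brought to heterochromatin by the HP1 protein Swi6 and counteracts the mark there. Mst2 is the catalytic subunit of an acetyltransferase complex that modifies histone H3 in transcribed chromatin. The Paf1 complex travels with elongating RNA polymerase II (RNAPII), and loss of its subunits lets small RNAs trigger silencing of genes that normally resist it. The 8 genes described here were chosen by systematic identifier, and all 8 were found among the 5129 genes listed. They are epe1 (SPCC622.16c), mst2 (SPAC17G8.13c), SPCC1450.02 and 5 genes of the Paf1 complex, which are paf1 (SPAC664.03), leo1 (SPBC13E7.08c), tpr1 (SPAC27D7.14c), cdc73 (SPBC17G9.02c) and prf1 (SPBC651.09c).

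The name under which SPCC1450.02 had been chosen, bdf2, was not the one the annotation gives it. In the RefSeq annotation of assembly ASM294v3, SPCC1450.02 is bdf1, a gene for a protein of the BET family with paired bromodomains, which bind acetylated histones. The symbol bdf2 belongs there to its relative SPAC631.02. SPCC1450.02 is therefore called bdf1 below, and the values of SPAC631.02 are given beside it, a choice made after the mismatch had been seen.

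Poly(A)-selected RNA was sequenced from 4 groups of 2 libraries each, from cultures in a rich medium. WT is the reference strain, and seb1-1 carries a viable mutant allele of Seb1, an RNA-binding protein that associates with RNAPII. The strain labels give an epe1 deletion both for epe1KO and for epe1KO_tfs1DN, and the latter also carries tfs1DN. This encodes a TFIIS protein with a dominant-negative effect on elongation, expressed from the thiamine-repressible nmt1 promoter at leu1, and the study sequenced a single isolate of it that had gained an ectopic heterochromatin domain. The values used are the authors' means, 1 per gene over the 4 libraries of WT and seb1-1 (the WT pair) and 1 over the 4 libraries of epe1KO and epe1KO_tfs1DN (the epe1KO pair). A mean over both groups of a pair holds no difference between seb1-1 and WT, or between epe1KO_tfs1DN and epe1KO, and those differences are not analysed here. Values of single libraries were not used, so no mean has an SD and no difference below has a test. The listed means sum to 22456953 normalised counts in the WT pair and to 15644260 in the epe1KO pair. The pairs were normalised separately, so strain, culture, library and normalisation cannot be told apart in any difference between them.

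The levels of the 8 transcripts spanned 12.1-fold in the WT pair, from paf1 down to epe1, once each mean had been divided by the length of its transcript. The subunit gene paf1, after which the complex is named, stood at 2165 normalised counts per kilobase. It was followed by prf1, which encodes the counterpart of budding yeast Rtf1, at 1801, and by bdf1 at 1718. All 3 lay above the 81st percentile of the 5111 genes with an annotated length, at 84.4, 81.6 and 81.1. The middle of the order held tpr1, which encodes the counterpart of budding yeast Ctr9, at 875 normalised counts per kilobase, leo1 at 733 and cdc73 at 671. The genes mst2 and epe1 came last, at 333 and 178 normalised counts per kilobase, which are percentiles 38.0 and 19.3. On this scale all 5 Paf1 complex genes lay above mst2 and epe1.

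In the epe1KO pair the same 3 genes led and the same 2 came last, but the middle of the order differed. Per kilobase, paf1 stood at 1564 normalised counts, prf1 at 1325 and bdf1 at 1220. Next came leo1 at 818 and cdc73 at 720, and tpr1 had moved below both, to 391. The gene mst2 was at 270 and epe1 at 177. The span from paf1 to epe1 was 8.85-fold. In percentiles, tpr1 went from 67.8 in the WT pair to 39.6 in the epe1KO pair, while leo1 went from 63.2 to 64.3 and cdc73 from 60.6 to 60.6. Without a spread between libraries it cannot be said which neighbours in either order differ beyond it. Divided by coding length instead of transcript length, mst2 stood above cdc73 in the WT pair (890 and 798) and above tpr1 in the epe1KO pair (722 and 424), and its coding part is 1224 of 3273 bases. On that scale bdf1 led the WT pair, at 2448 against 2414 for paf1, and epe1 remained last in both pairs, at 250 and 248.

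**Figure D1:**
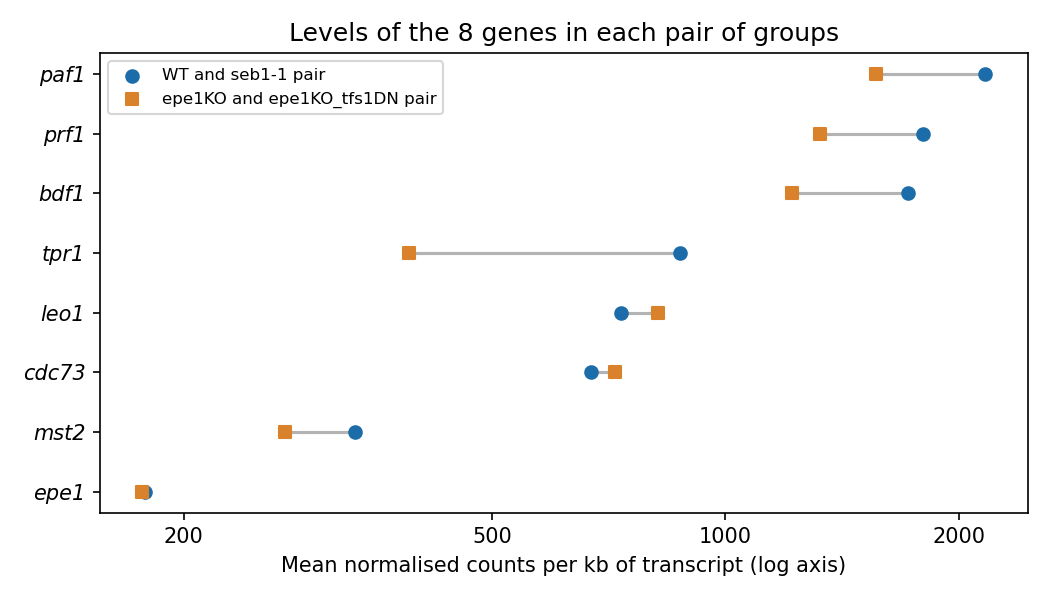
Authors' mean normalised counts per kilobase of transcript (log axis) for each of the 8 genes, in the WT and seb1-1 pair (circles) and the epe1KO and epe1KO_tfs1DN pair (squares). Each point is 1 mean over 4 libraries with no error bar. The longest line joins the points of tpr1, at 875 and 391, and the points of epe1, at 178 and 177, nearly coincide.

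The gene epe1 is the one that the labels name as deleted. Before any scaling between the pairs, its mean was nearly the same in both. The authors' mean was 712 normalised counts in the WT pair and 706 in the epe1KO pair, where both groups carry the deletion label. Genes listed at a mean of 0 in the epe1KO pair numbered 47, and epe1 was not among them. The counts of epe1 thus go against the labels of at least some of these libraries, as far as removal of the whole gene is meant. The mean pools epe1KO and epe1KO_tfs1DN, so it cannot place the reads in either group or in both. The name epe1KO is used below only for the libraries so labelled. How much of the gene was removed was not found in the labels or methods, so it cannot be told from these means which part of epe1 the reads come from. Long non-coding RNA genes on the opposite strand, among them SPNCRNA.67, cover 72.0% of epe1 in the annotation. The libraries were directional but the strand setting of the counting is not given, so reads of epe1 and of these transcripts cannot be told apart, and their part in the epe1 values was not tested. Other genes that bear on the strains were ura4, required for uracil synthesis, with means of 2022 in the WT pair and 7.98 in the other, leu1, the site of the tfs1DN insertion, with 9767 and 13643, and seb1, with 3558 and 3032. Of these, ura4 set the pairs apart the most and fell under the minimum mean used below. The next gene listed on one side of epe1, SPCC622.15c, had means of 2373 and 1248.

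Differences between the pairs were expressed as the log2 ratio of the means, epe1KO pair over WT pair, minus the median of that ratio over the 4936 genes with a mean of at least 10 in both pairs. All 8 genes passed this minimum. A value of 0 then means that a gene differed as the median gene did. For epe1 this centred ratio was -0.13, or 0.51 when each mean was divided by the sum of its pair instead. For mst2 it was -0.41, from means of 1089 and 883 normalised counts. For bdf1 it was -0.61, from means of 4252 and 3018. The relative of bdf1, bdf2 (SPAC631.02), had means of 1722 and 2170 and a centred ratio of 0.22. The BET protein genes thus lay on opposite sides of the median gene, bdf1 at percentile 19.1 of all centred ratios and bdf2 at percentile 63.5, although both were above 0 (0.03 and 0.85) when each mean was divided by the sum of its pair instead.

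Among the genes of the Paf1 complex, tpr1 stood furthest from the median gene. Its means were 2961 normalised counts in the WT pair and 1323 in the epe1KO pair, a centred ratio of -1.27, or 2.42-fold lower than the median gene, at percentile 4.54 of all genes. The genes paf1, with means of 3310 and 2392, and prf1, with 3442 and 2533, were at -0.58 and -0.55 relative to the median gene but at 0.05 and 0.08 with scaling by sums. The remaining pair lay at the median gene, with leo1 at means of 1781 and 1988 (0.05) and cdc73 at 891 and 956 (-0.01). With scaling by sums, leo1 was at 0.68 and cdc73 at 0.62. If normalised counts are treated as reads, the 95% interval of the centred ratio reaches 0.05 to either side for tpr1 and at most 0.08 for any of the 8 genes, the widest being that of epe1. These intervals cover counting error only and not the spread between libraries, which sets how far such a ratio can be trusted.

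**Figure D2:**
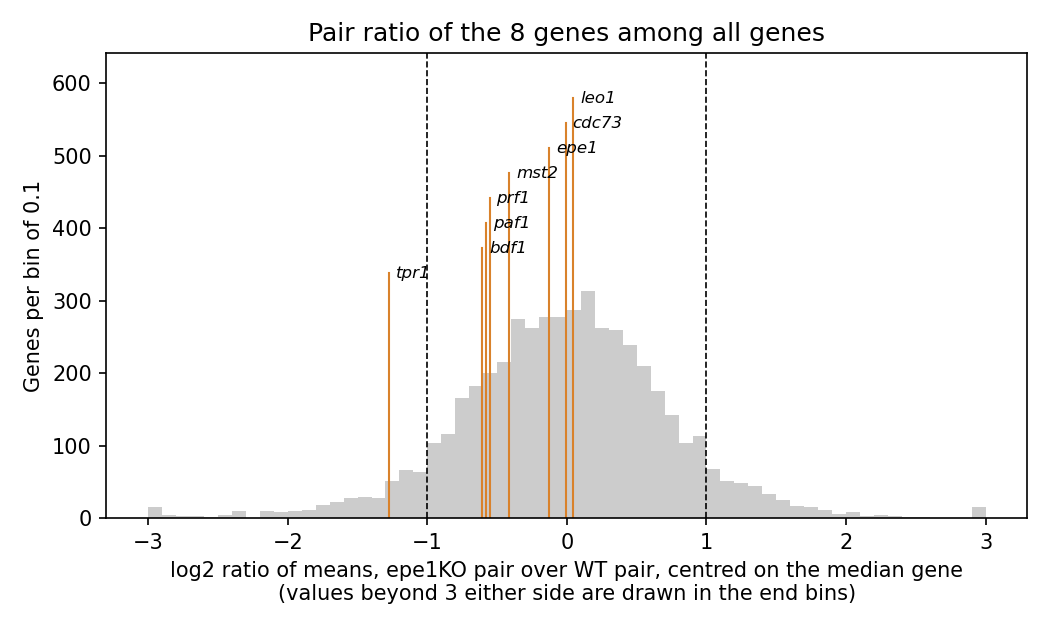
Histogram of the centred log2 ratio of means, epe1KO pair over WT pair, for 4936 genes (bins of 0.1), with lines at the 8 genes described and dashed lines at 2-fold. The height of the lines carries no meaning. One gene, tpr1 at -1.27, lies past the lower dashed line, and the other 7 lie between -0.61 and 0.05. With scaling by sums all values would sit 0.63 higher and tpr1 would lie inside the dashed lines.

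Counted by size, 1 of the 8 genes, tpr1, differed by more than 2-fold from the median gene, where 15.3% of all genes did so in either direction and 7.94% in the lower one. At 1.5-fold there were 2, tpr1 and bdf1, beside 38.8% of all genes. These counts are near the shares of all genes or below them, so they are not a result about the 8 genes. Their median centred ratio was -0.48, with 7 below 0 and 1 above, against quartiles of -0.46 and 0.44 over all genes. The 7 include cdc73 at -0.01, and the split was 6 below and 2 above with a minimum mean of 100 or with no centring. These directions hold relative to the median gene only. When each mean was divided by the sum of its pair instead, all ratios moved up by 0.63. The 8 genes then had 1 ratio below 0 and 7 above. Of the 4936 genes, 890 were below 0 and 4046 above, so this split is not a result about the 8 genes. Past 2-fold were 0 of 8, beside 31.4% of all genes. With that scaling tpr1 was at -0.64 and bdf1 at 0.03. Over all genes the centred ratio was lower for more abundant transcripts (Spearman's rho -0.39 over 4936 genes) and for longer ones (-0.37 over 4930 genes), and genes within one set of libraries are not independent replicates. The transcript of tpr1 is 3385 bases long and its WT pair mean is the fourth highest of the 8, and the part of length and abundance in its ratio was not tested.

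Ratios between genes within a pair do not depend on how the pairs were scaled. Set against paf1 in the same pair, prf1 was at 83.2% per kilobase in the WT pair and 84.7% in the epe1KO pair, so these subunit genes kept nearly the same proportion. The gene leo1, whose product limits the spread of heterochromatin at its boundaries, was at 33.8% and 52.3% of paf1. The gene cdc73, the counterpart of the human tumour suppressor gene CDC73, was at 31.0% and 46.0%. In contrast, tpr1 was at 40.4% and 25.0%. Per kilobase, tpr1 was therefore 1.19 times leo1 and 1.30 times cdc73 in the WT pair, and 0.478 times leo1 and 0.543 times cdc73 in the epe1KO pair. Relative to each of the 4 other subunit genes, tpr1 was lower in the epe1KO pair, by log2 differences of -0.69 against paf1, -0.72 against prf1, -1.27 against cdc73 and -1.32 against leo1. All 4 differences use the same tpr1 mean of each pair, so they are not 4 separate observations. The transcript of tpr1, at 3385 bases, is the longest of the subunit genes. The part of length and abundance in these differences was not tested. The highest level of a subunit gene was 3.23 times the lowest in the WT pair and 4.00 times in the epe1KO pair.

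**Figure D3:**
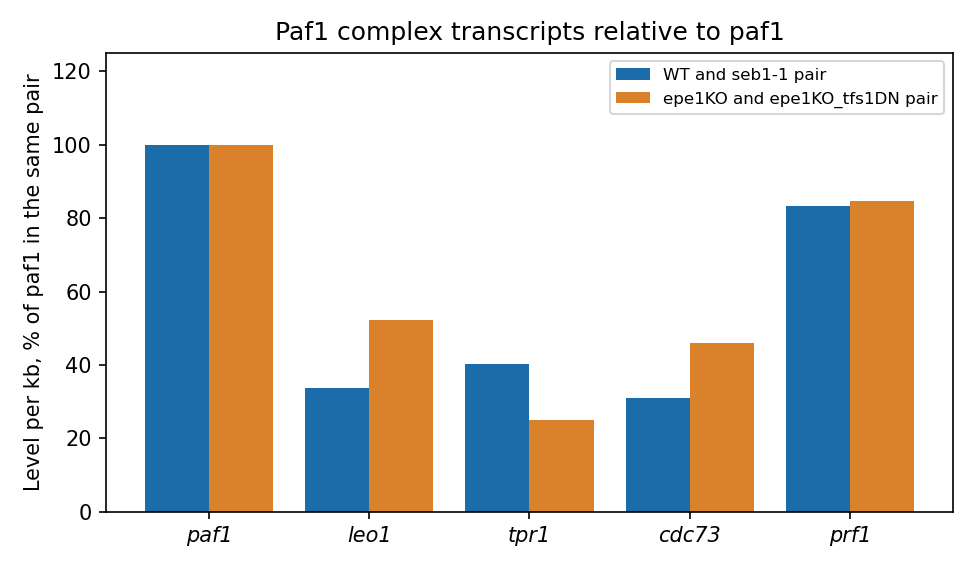
Levels per kilobase of the 5 Paf1 complex genes as a percentage of paf1 in the same pair, for the WT and seb1-1 pair (left bars) and the epe1KO and epe1KO_tfs1DN pair (right bars), from 1 authors' mean each with no error bar. The bar of prf1 is alike in both (83.2% and 84.7%), those of leo1 and cdc73 are taller in the epe1KO pair, and that of tpr1 is shorter (40.4% and 25.0%).

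In the annotation, 7 of the 8 genes overlap a transcript on the opposite strand, as do 89.9% of all genes matched. The exception is prf1. Protein-coding genes cover mst2 and leo1 entirely. The one opposite mst2 is sec3, an exocyst subunit gene, with means of 555 and 636 normalised counts. The one opposite leo1 is SPBC13E7.07, with means of 2296 and 2491. Both genes of the leo1 locus had centred ratios near 0, at 0.05 and 0.01. At the mst2 locus the centred ratios were -0.41 for mst2 and 0.09 for sec3. With scaling by sums leo1 and SPBC13E7.07 were at 0.68 and 0.64, and mst2 and sec3 at 0.22 and 0.72. The strand setting of the counting is not given, so reads of genes that overlap on opposite strands cannot be told apart. The ratios of leo1 and SPBC13E7.07, and those of mst2 and sec3, may therefore rest partly on the same reads, which was not tested. A long non-coding RNA gene covers all of tpr1 and another covers 96.5% of paf1. Of the 16 listed genes adjacent to a member, 5 differed by more than 2-fold from the median gene, all 5 lower and SPCC622.15c among them. Beside this stand 15.3% of all genes in either direction and 7.94% in the lower one. With scaling by sums 3 of the 16 were more than 2-fold lower and 2 more than 2-fold higher, beside 31.4% of all genes, and SPCC622.15c was at -0.41 and prp16 at -0.50. The largest difference was that of inv1, the invertase gene of sucrose use next to bdf1, with means of 6613 and 549. Next to tpr1, SPAC637.03 had means of 5944 and 1267, while the gene on its other side, ssm4, which encodes a microtubule-binding protein, had 135 and 122. The gene vrp1 next to leo1 had means of 2232 and 754, and prp16 next to cdc73, a splicing helicase gene that overlaps 7.69% of it, had 751 and 370. Centred ratios of leo1 and cdc73 near 0 thus stood beside neighbours at -1.68 and -1.13.

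The partners of these proteins were described from lists of gene symbols in the same way. Of the 6 genes for partners of Mst2 in its complex, 1, ptf2, was more than 2-fold higher than the median gene, beside 7.31% of all genes. Its means were 174 and 544 normalised counts, a centred ratio of 1.54. The list had a median of 0.28, above that of the 8 genes (-0.48), and reached down to -0.49 for tfg3, a gene for a subunit shared with general transcription complexes, which was also its most abundant transcript per kilobase at 2842 in the WT pair. The subunit gene ptf1 was at 0.87 and eaf6 at 0.71, while nto1 was at -0.21 and pdp3, which encodes a PWWP-domain protein that guides Mst2 to chromatin, was at -0.15. Transcript lengths were 824 bases for eaf6, 948 for ptf1 and 1352 for ptf2. They were 1239 for tfg3, 1391 for pdp3 and 2475 for nto1, and 3273 for mst2. The part of length and abundance in these ratios was not tested. With scaling by sums the list median was 0.92 and mst2 stood at 0.22. With that scaling 3 of the 6 were more than 2-fold higher, namely ptf1, eaf6 at 1.35 and ptf2 at 2.17. Beside this, 31.4% of all genes were past 2-fold in either direction, and all ratios sat 0.63 higher than around the median gene. The share of all genes in the higher direction alone was not counted for this scaling, so the 3 are not a result about this list.

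The elongation factors that work with the Paf1 complex had a median centred ratio of -0.32 over 13 genes, or 0.31 with scaling by sums. Of these genes 1 was more than 2-fold lower than the median gene, about the share of all genes (7.94%). With scaling by sums 0 were past 2-fold, beside 31.4% of all genes. The gene past it around the median gene was spt5, which encodes the elongation factor that carries regulatory repeats phosphorylated by Cdk9. Its means were 5457 and 2231 (centred ratio -1.40). Close to the limit was spt6, a histone chaperone gene, with means of 4511 and 2445, 1.99-fold lower than the median gene. The transcripts of spt5 and spt6 are 3211 and 4386 bases long. As for tpr1, the part of length and abundance in their ratios was not tested. The ratios of tpr1, spt5 and spt6 stayed below 0 with scaling by sums, at -0.64, -0.77 and -0.36. So did those of spt16 (-0.19), spt4 (-0.11), cdk9 (-0.02) and set2 (-0.01), while the rest of this list was above 0. Of all 4936 genes with a ratio, 890 were below 0 with that scaling. The most abundant gene of this list per kilobase in the WT pair was rhp6, the ubiquitin-conjugating enzyme of histone H2B, at 3906, and the least abundant was brl1, a subunit of its ubiquitin ligase, at 208. For tfs1, the gene of TFIIS, the means were 2149 and 2473, a centred ratio of 0.09. The epe1KO pair includes the libraries with the added tfs1DN copy.

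**Figure D4:**
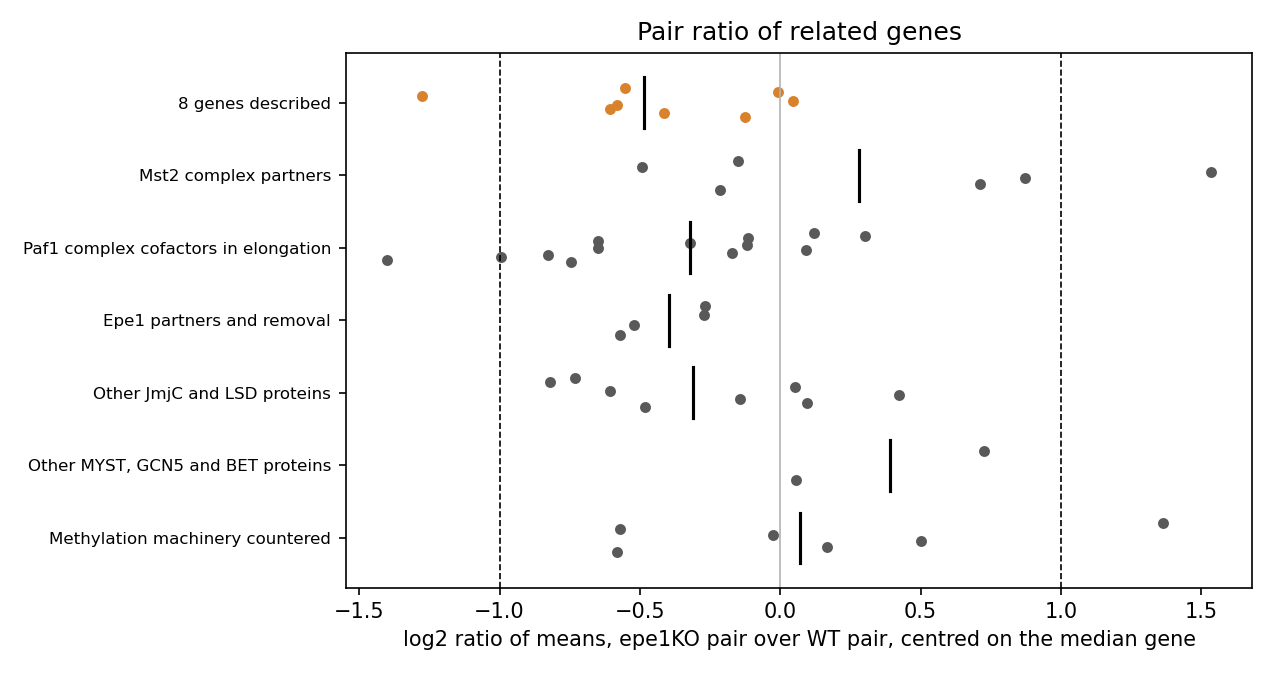
Centred log2 ratio of means, epe1KO pair over WT pair, for the 8 genes described (top row) and 6 lists of related genes, 1 point per gene, with a vertical bar at each median, a grey line at the median gene and dashed lines at 2-fold. Past the dashed lines lie tpr1 in the top row (-1.27), ptf2 (1.54), spt5 (-1.40) and chp2 (1.36). With scaling by sums every point would sit 0.63 higher, with tpr1 and spt5 inside the dashed lines and more points past the upper one.

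The list of Epe1's partner Swi6 and the Cul4 ubiquitin ligase that limits the spread of Epe1, with the 4 genes swi6, cul4 (found under its older symbol pcu4), ddb1 and cdt2, ran from -0.57 to -0.27, with a median of -0.40, or 0.24 with scaling by sums. Of these 4 genes 0 were past 2-fold under either scaling. Of all genes 15.3% were past it around the median gene and 31.4% with scaling by sums. Per kilobase in the WT pair, swi6 was the highest of them at 1640 and cul4 the lowest at 188, which is about the level of epe1. The other demethylase-like genes of the JmjC and LSD families lay around epe1 (178) in level, from 137 normalised counts per kilobase in the WT pair for jmj2 to 470 for lsd1. Their median centred ratio was -0.31, or 0.32 with scaling by sums. Of these 8 genes 0 were past 2-fold, or 1 with scaling by sums (jmj4 at 1.06), beside 15.3% and 31.4% of all genes. The acetyltransferase genes mst1 and gcn5 stood at 187 and 194 normalised counts per kilobase in the WT pair, below mst2, with centred ratios of 0.06 and 0.73 (median 0.39), or 0.69 and 1.36 with scaling by sums (median 1.02).

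The methyltransferase machinery that Epe1, Mst2 and the Paf1 complex counter was, apart from swi6, below mst2 (333) in level per kilobase in the WT pair. The gene clr4, which encodes the histone H3 lysine 9 methyltransferase, was at 140 normalised counts per kilobase in the WT pair and 101 in the epe1KO pair. Per transcript length epe1 was above clr4 in both pairs, but per coding length the order was reversed, with epe1 at 250 and clr4 at 419 in the WT pair and at 248 and 302 in the epe1KO pair. Of the 6 genes on this list 1 was past 2-fold, or 2 with scaling by sums, beside 15.3% and 31.4% of all genes. The gene past it around the median gene was the HP1 gene chp2, the least abundant of them at 87.6 per kilobase in the WT pair, with means of 106 and 296 (centred ratio 1.36). The list median was 0.07, or 0.70 with scaling by sums.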

How the data were processed

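Per the labels and the study's methods, the authors aligned reads with TopHat to genome build ASM294v2 and ran DESeq2 on the 4 libraries of each pair of groups. How reads were counted, with or without strand, and tool versions were not found in the labels or methods. The authors deposited 2 tables of 5129 genes. The column used is a signal, the authors' mean of gene counts divided by size factors over the 4 libraries of the pair. The other 5 columns of values hold the authors' own comparisons (a log2 fold change, its standard error, a Wald statistic, a p-value and an adjusted p-value) and were not used. The depth of single libraries is therefore unknown. Whether both libraries of a group were grown separately is not stated in the labels.

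Gene identifiers were matched without regard to case to the RefSeq annotation of ASM294v3, and 5111 of 5129 matched. As the builds differ, it served only for symbols, lengths, overlaps and gene order, and no sequence was read. The promoter motif search that had been planned was therefore not run. Means were divided by the length of the longest transcript. Log2 ratios between the pairs used genes with means of at least 10 in both, no pseudocount, and centring on the median gene. The scripts were checked on simulated data. Alternatives were scaling by the sum of each table, no centring, no minimum, a minimum of 100, a pseudocount of 1, a limit of 1.5-fold and coding length. Intervals are 95% Poisson intervals on the log scale. Members and lists were chosen with earlier results of these data known. Of each list, the genes with the highest and lowest level per kilobase and those past 2-fold were to be named, and of the genes next to a member those past 2-fold. Other list genes, bdf2, ssm4, utp502, nse5 and the genes opposite members were named after their values were seen. Python 3.11.15, pandas 2.3.3, numpy 2.4.6 and scipy 1.17.1 were used.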

Additional observations from a re-analysis of the deposited data

How the results depend on the processing

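Scaling between the separately normalised tables had the most effect among the alternatives run. The median centred ratio of the 8 genes was -0.48, 0.15 with scaling by sums and -0.37 with no centring, and the count past 2-fold went from 1 to 0 with scaling by sums and to 2 at a limit of 1.5-fold. With no minimum, a minimum of 100 or a pseudocount of 1, all 8 ratios moved by less than their counting error, although with a minimum of 100 the split went from 7 below and 1 above 0 to 6 and 2. With coding length, the median level per kilobase was 1165 in place of 804 in the WT pair and 1181 in place of 769 in the epe1KO pair. Ranked by means not divided by length, the median percentile was 77.4 in place of 65.5 and 70.6 in place of 62.4. No paired analysis was possible because each value is a mean over 4 libraries and carries no replicate number, and no library could be left out for the same reason. Depth per library is unknown and limits all values.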
